A study of Mus with 4 samples.

Results

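The genes described here build and regulate the actin, myosin and contractile cytoskeleton, and comprise 52 symbols chosen by name. All 52 were on the array, with 125 of its 45101 probe sets, taken as every probe set whose platform annotation gives a single symbol from the list. Of these 125, 3 are array controls for beta-actin, which were described apart, so 122 were tested. The cells were PPS-ICBR, labelled as a mouse prostate cancer line of strain C57Bl6, and the 4 arrays fall into 2 groups of 2. The Vorinostat group received 5 µM vorinostat in DMSO overnight, and the DMSO group received 5 µL DMSO in 10 mL of medium. Vorinostat blocks histone deacetylase enzymes, and DMSO is its solvent. Both groups come from 1 cell line in culture, plated at 60% confluency, so the values describe that line alone. The labels leave unsaid whether replicate arrays stem from different dishes, so each p-value here reflects array-to-array spread that could be purely technical.

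Actin exists as monomers and as filaments that the cell keeps taking apart and rebuilding. Profilins, thymosins and cofilins govern the monomer supply, cross-linkers and bundlers tie filaments together, tropomyosins and calponins coat them, and myosin II pulls on them. Focal adhesions and the ezrin, radixin and moesin proteins anchor filaments to the membrane. Serum response factor (SRF), with the coactivator Mrtfa that actin monomers hold in the cytoplasm, drives many of these genes. In the prostate, contractile actins are best known from the smooth muscle of the stroma.

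Values are the deposited log2 levels, 1 per probe set and array, and each gene stands by its probe set with the highest mean. Changes are vorinostat minus DMSO with the standard error (SE), n = 2 arrays per group, and adjusted p is that of limma with Benjamini-Hochberg adjustment over all 45037 probe sets that are not controls. Calls use an adjusted p threshold of 0.05. The medians were 4.26 and 4.28 on the Vorinostat arrays and 4.19 and 4.22 on the DMSO arrays. Within a group the arrays correlated at 0.9975 (Vorinostat) and 0.9972 (DMSO), against 0.9703 to 0.974 between groups. The difference of the 3' and 5' ends of the beta-actin control, a sign of RNA integrity, was 0.02 and 0.00 on the Vorinostat arrays and 0.02 and 0.04 on the DMSO arrays. The controls for bacterial trp, a transcript absent from these samples, reached 2.78, and a probe set was called near background in a group where both arrays lay no more than 1 above that, at up to 3.78.

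The labelled epithelial origin was set against marker genes. Krt8 (11.11 and 11.40 with vorinostat, 12.25 and 12.36 with DMSO), Krt18, Epcam, Cdh1 and the prostate homeobox gene Hoxb13 were all above background, while the prostate secretory gene Pbsn was near background in both groups. Of 8 luminal epithelial markers measured, 2 rose and 2 fell, or 50% called against 39.9% of all genes. The rises were Krt19 (1.10, SE 0.10, adjusted p = 0.000928 by limma) and Hoxb13 (0.54, SE 0.08, adjusted p = 0.00497). The falls were Krt8 (-1.05, SE 0.12, adjusted p = 0.00222) and Cd24a (-0.77, SE 0.09, adjusted p = 0.00223). Of 7 fibroblast markers 6 were above background and Lum was near it in both groups. Col1a2 was at 12.40 and 12.53 with vorinostat and 12.67 and 12.68 with DMSO, and Dcn at 10.34 and 10.55 with vorinostat and 9.24 and 9.13 with DMSO. The fibroblast receptor genes moved in opposite directions, Pdgfra rising (1.54, SE 0.09, adjusted p = 0.000321) and Pdgfrb falling (-2.49, SE 0.10, adjusted p = 0.000177). Of 4 endothelial markers, Pecam1 and Tek were near background in both groups, while Cdh5 (4.19 and 4.59 with vorinostat, 4.26 and 4.39 with DMSO) and Kdr (4.33 and 4.39 with vorinostat, 4.01 and 4.22 with DMSO) were above it and did not pass. Of 5 immune markers, Ptprc, Adgre1 and Itgam were near background in both groups, Csf1r (4.86 and 5.04 with vorinostat, 4.70 and 4.84 with DMSO) did not pass, and Cd3e rose (4.96 and 4.91 with vorinostat, 4.44 and 4.57 with DMSO, adjusted p = 0.0158). In such bulk samples, fewer cells of a type and less RNA per cell cannot be told apart.

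With vorinostat, 15 of the 52 genes rose, 14 fell and 23 did not pass. The 29 changed genes are 55.8% of the set, where 39.9% of all 18193 genes passed, 20.9% of them higher and 18.9% lower. The change reached 2-fold in 7 rising genes (Cnn1, Myl12b, Pfn2, Pxn, Flnc, Gsn and Mrtfa) and 3 falling ones (Acta2, Tagln2 and Rdx), or 19.2% of the set against 11.9% of all genes (5.74% higher and 6.17% lower). The median change of the set was 0.09, against 0.03 over all genes, and the median absolute change 0.40 against 0.24. The 2 Vorinostat arrays and the 2 DMSO arrays did not overlap in 44 of the 52 genes, or 84.6%, against 68.9% of all genes. All of the 52 genes but Actg2, Lcp1, Mylk and Vil1 lay above the median level of all probe sets (4.26). These shares are not matched for level, and whether other genes of like level changed as often was not tested. Leaving out any 1 array leaves a group with 1 array, and fewer genes of the set then passed, as did fewer probe sets over the whole array. The median change of the set then lay between 0.06 and 0.12. Counted over probe sets on all 4 arrays, 26.2% of the set rose, against 16.5% of all probe sets, and 18.9% fell, against 15.7%. Scaling every array on 7 reference genes added 0.38 to every change, and 33 genes then rose and 7 fell, a share of probe sets near that over the whole array (67.2% of the set higher against 62% of all, and 11.5% lower against 8.59%). That shift rests mostly on Gusb (-1.42) and Polr2a (-0.75), and the changes of the other 5 reference genes lay between -0.26 and 0.02.

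**Figure D1:**
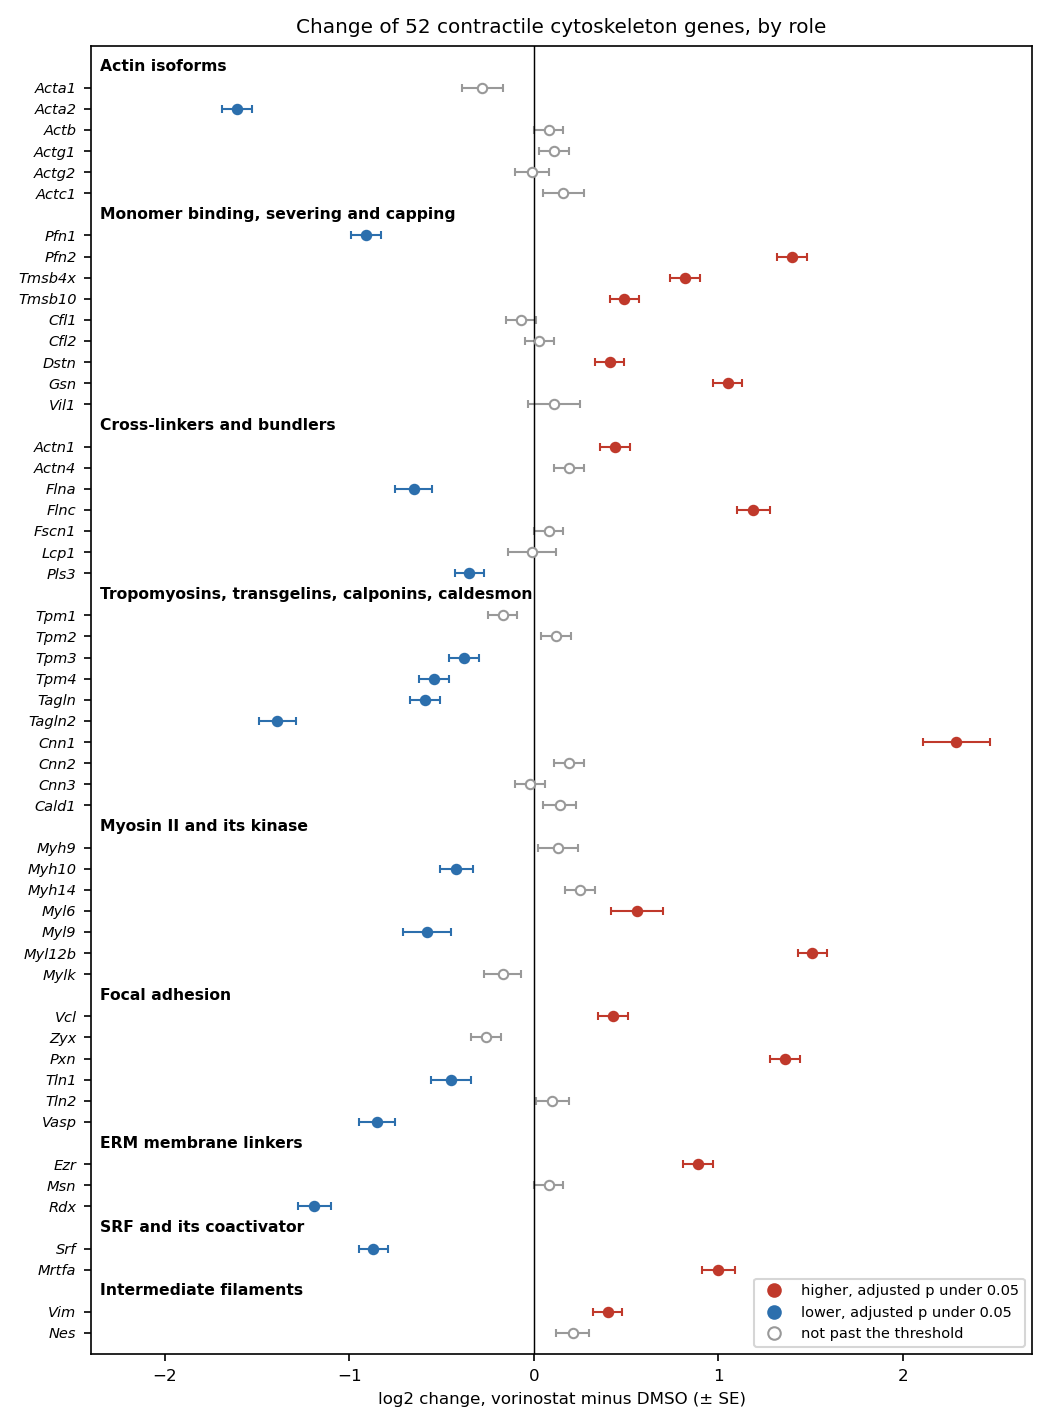
Log2 change (vorinostat minus DMSO, horizontal axis) of each of the 52 genes by role, as a point with its SE from 2 arrays per group; filled red points rose, filled blue points fell and open grey points did not pass the threshold. Changes run from -1.61 for Acta2 to 2.29 for Cnn1, and most role groups hold genes on both sides of 0.

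The 6 actins behaved unequally. The cytoplasmic actins, which form most filaments of non-muscle cells, did not pass. Actb (probe set 1436722_a_at) was at 13.68 and 13.72 with vorinostat and 13.59 and 13.65 with DMSO, a change of 0.08 (SE 0.08, adjusted p = 0.511 by limma). Actg1 (1415779_s_at) was at 13.19 and 13.15 with vorinostat and 13.04 and 13.07 with DMSO, a change of 0.11 (SE 0.08, adjusted p = 0.336). For each of these genes both Vorinostat arrays lay above both DMSO arrays. The exception was Acta2, the smooth muscle alpha-actin also made by myofibroblasts. Its bright probe set (1416454_s_at) read 9.28 and 9.30 with vorinostat against 10.91 and 10.90 with DMSO, which is 3.06-fold lower (log2 change -1.61, SE 0.08, adjusted p = 0.000237). The groups were separated by far more than the arrays of a group. The skeletal Acta1 (-0.28) and the cardiac Actc1 (0.16) did not pass, and the enteric smooth muscle Actg2 (-0.01) was near background in both groups.

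Several reservations attach to the actin values. Actin genes are near-identical in their coding parts, so how far each probe set measures a single actin is uncertain. The brightest probe sets of Acta2 and Actg1 carry the suffix _s_at, for possible matches to several transcripts. Those of Acta1, Actb and Actg2 carry _a_at, for transcript variants. The 2 other Acta2 probe sets, without a suffix, were near background, with changes of 0.25 and -0.30 that did not pass. On reference-gene scaling Actb moved to 0.46 (adjusted p = 0.00752), Actg1 to 0.49 (0.00515) and Acta1 turned to 0.10, while Acta2 stayed lower at -1.24. The Actb level is close to the highest value in the table, and its second probe set (1419734_at) was at 11.32 and 11.37 with vorinostat and 11.15 and 11.09 with DMSO, a change of 0.23 that did not pass (adjusted p = 0.0893). Whether brightness limited the change was not tested.

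**Figure D2:**
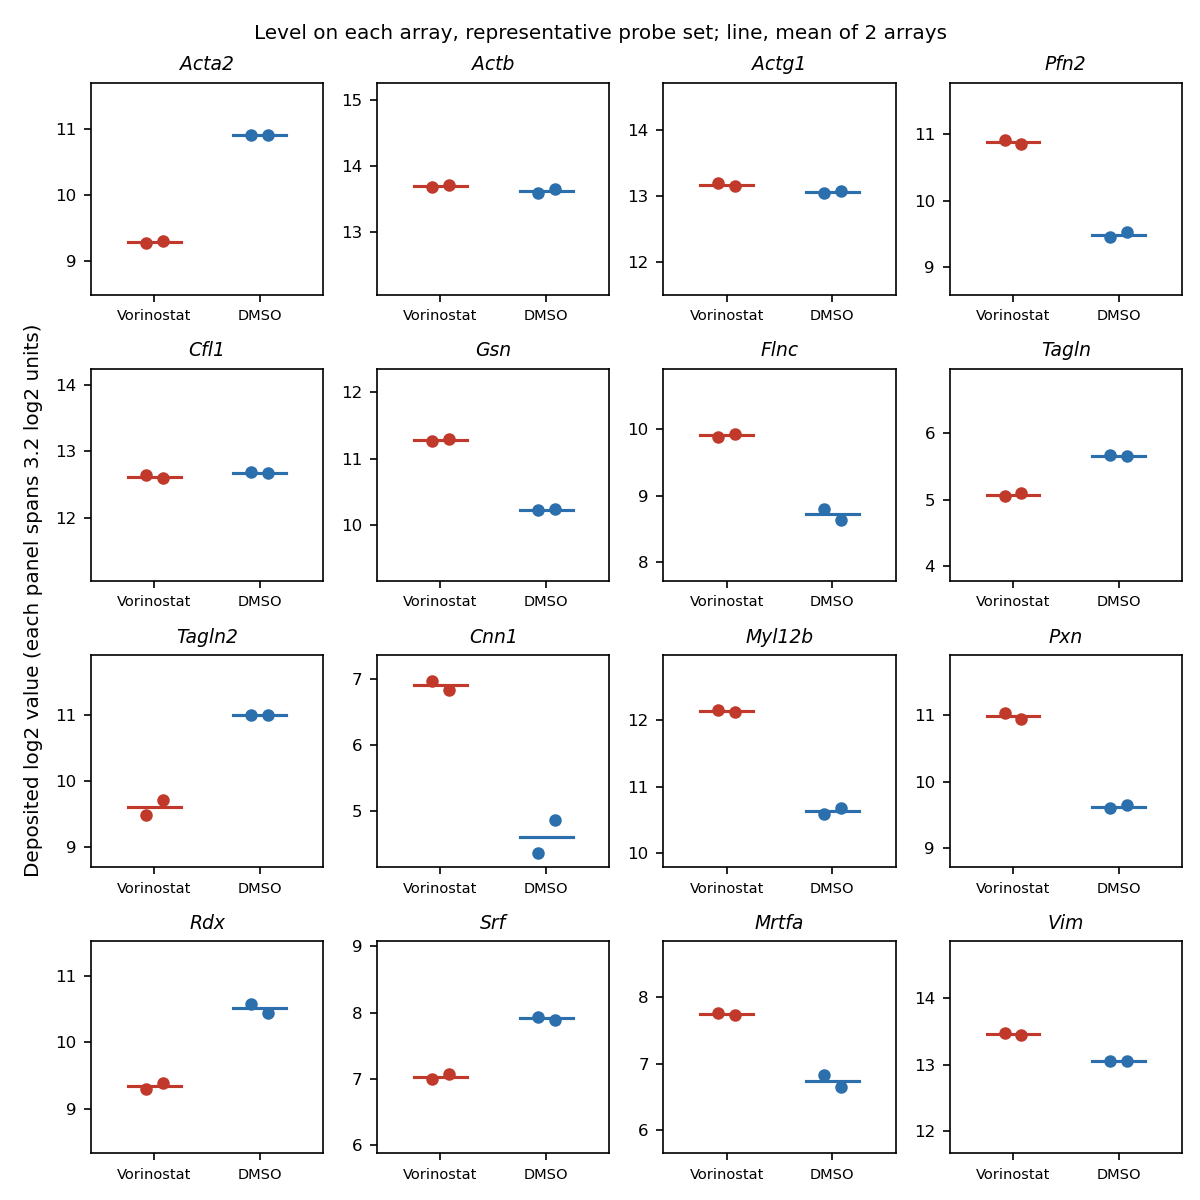
Deposited log2 level on each array (vertical axis, 3.2 log2 units in each panel) for 16 genes, Vorinostat in red at the left and DMSO in blue at the right, with a line at the mean of 2 arrays. Acta2, Tagln2, Rdx, Srf and Tagln lie lower with vorinostat, Pfn2, Gsn, Flnc, Cnn1, Myl12b, Pxn, Mrtfa and Vim higher, and Actb, Actg1 and Cfl1 differ by 0.11 or less.

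Of the 9 genes for monomer binding, severing and capping, 5 rose, 1 fell and 3 did not pass, with a median change of 0.41. The profilins, which deliver monomers to growing filament ends, moved in opposite directions. Pfn1 read 11.53 and 11.63 with vorinostat and 12.49 and 12.49 with DMSO, 1.88-fold lower (-0.91, SE 0.08, adjusted p = 0.00105). Pfn2, the profilin abundant in brain, read 10.92 and 10.85 with vorinostat and 9.45 and 9.52 with DMSO, 2.63-fold higher (1.4, SE 0.08, adjusted p = 0.000332). All 3 Pfn2 probe sets passed, between 1.38 and 1.4.

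The thymosins, small peptides that sequester monomers, both rose, Tmsb4x by 0.82 (SE 0.08, adjusted p = 0.00144) and Tmsb10 by 0.49 (SE 0.08, adjusted p = 0.00739). Of 5 Tmsb10 probe sets 3 rose, and the others, at 0.12 and 0.17, did not pass. Gsn, which encodes the severing and capping protein gelsolin, read 11.26 and 11.30 with vorinostat and 10.22 and 10.24 with DMSO, 2.06-fold higher (1.05, SE 0.08, adjusted p = 0.000569). Of its 6 probe sets 5 passed, all higher at 0.99 to 1.14, and 1 of these 5 was near background, as was the probe set that did not pass. The depolymerising factor Dstn rose by 0.41 (SE 0.08, adjusted p = 0.0119). Its relative Cfl1, the main cofilin of non-muscle cells, read 12.64 and 12.59 with vorinostat and 12.69 and 12.67 with DMSO and did not pass (-0.07, SE 0.08, adjusted p = 0.588). The muscle cofilin Cfl2 was split between its probe sets. The brightest (1418067_at) changed by 0.03 (adjusted p = 0.81), and the third was at -0.59 (adjusted p = 0.144). Another (1418066_at) rose, at 8.86 and 8.89 with vorinostat against 7.86 and 7.75 with DMSO (1.07, adjusted p = 0.000674). Brush border villin, Vil1, was near background in both groups. The call of Dstn was lost without any 1 of the 4 arrays, at 0.40 to 0.43, and that of Tmsb10 without Vorinostat 1 (0.46), DMSO 1 (0.51) or DMSO 2 (0.47). Under reference-gene scaling Cfl1 turned to 0.31 (adjusted p = 0.0216), while its second probe set fell on the deposited scale (-0.34, adjusted p = 0.0279).

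Among 7 cross-linkers and bundlers, 2 rose, 2 fell and 3 did not pass. The filamins, which link filaments into a gel, differed in direction. Flnc, the filamin of striated muscle, read 9.89 and 9.93 with vorinostat and 8.80 and 8.64 with DMSO, 2.29-fold higher (1.19, SE 0.09, adjusted p = 0.000633), and its second probe set rose by 1.27. The widely expressed Flna read 8.93 and 8.92 with vorinostat and 9.69 and 9.45 with DMSO, 1.57-fold lower (-0.65, SE 0.10, adjusted p = 0.00728). The alpha-actinin Actn1 rose by 0.44 (SE 0.08, adjusted p = 0.0102), and Actn4 had 0.19 and did not pass. The bundler Pls3, or T-plastin, fell by 0.35 (SE 0.08, adjusted p = 0.0213), but was at 0.03 under reference-gene scaling. Fascin, Fscn1, which bundles the filaments of filopodia, had a change of 0.08 (adjusted p = 0.519), and the leukocyte plastin Lcp1 was near background in both groups. Actn1 (0.41 to 0.47) and Pls3 (-0.37 to -0.33) missed the threshold without any 1 of the 4 arrays, and Flna without Vorinostat 1 (-0.66) or Vorinostat 2 (-0.64). The other Actn1 probe sets, at 0.02 and 0.31, did not pass.

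Of 10 tropomyosins, transgelins, calponins and caldesmon, which lie along filaments, 1 rose, 4 fell and 5 did not pass. The rise was the largest of all 52 genes: Cnn1, the calponin of smooth muscle, read 6.97 and 6.83 with vorinostat and 4.37 and 4.86 with DMSO, 4.88-fold higher (2.29, SE 0.18, adjusted p = 0.000644). Its DMSO arrays differed by 0.49, the widest gap between DMSO arrays among the 52 brightest probe sets, and the change was 2.04 without DMSO 1 and 2.53 without DMSO 2. The other calponins did not pass, with 0.19 for Cnn2 and -0.02 for Cnn3, and the 6 probe sets of Cnn3 lay between -0.20 and -0.02.

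The transgelins fell. Tagln, a smooth muscle protein like calponin, read 5.05 and 5.10 with vorinostat and 5.67 and 5.66 with DMSO (-0.59, SE 0.08, adjusted p = 0.00345). Tagln2, its non-muscle relative, read 9.49 and 9.72 with vorinostat and 11 and 10.99 with DMSO, 2.63-fold lower (-1.39, SE 0.10, adjusted p = 0.000598). All 3 Tagln2 probe sets passed, from -1.39 to -0.71, the last near background. Thus Acta2 and Tagln were lower and Cnn1 higher with vorinostat, although the 3 are often used together as smooth muscle genes. The smooth muscle marker list, which holds Cnn1 but not Acta2 or Tagln, had 2 of 7 members higher (Cnn1 and Synpo2) and 1 lower (Smtn). That is 42.9% called, against 39.9% of all genes, and its members Myh11 and Actg2 were near background. Its summed log2 level, 8.17 to 8.19 with vorinostat and 7.83 to 7.86 with DMSO, includes the rise of Cnn1 itself and so is not separate from it. The sum leaves out Acta2, which fell and was by itself brighter, at 9.28 and 9.30 with vorinostat and 10.91 and 10.90 with DMSO. The direction of the sum thus depends on which genes the list holds. Of 7 fibroblast markers 2 rose and 2 fell (57.1% called), with a summed level of 12.96 to 13.19 with vorinostat and 13.30 to 13.31 with DMSO. The part of either cell type in these changes was not tested.

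The tropomyosins Tpm3 (-0.38, SE 0.08, adjusted p = 0.0167) and Tpm4 (-0.54, SE 0.08, adjusted p = 0.00503) fell, and Tpm1 (-0.17, adjusted p = 0.211) and Tpm2 (0.12, adjusted p = 0.289) did not pass. Tpm4 read 11.12 and 11.17 with vorinostat against 11.67 and 11.71 with DMSO, with no overlap. These genes make many splice forms, and their probe sets did not move as 1: 1 of 4 Tpm1 probe sets fell (1456623_at, -0.91, adjusted p = 0.0167), and 3 of 5 Tpm3 probe sets fell, by up to 0.65. The filament-coating caldesmon gene Cald1 had 0.14 (adjusted p = 0.314), and its 5 probe sets, between -0.12 and 0.14, did not pass. On reference-gene scaling Tpm3 was at 0.00, Tpm1 at 0.21, Tpm4 at -0.16 and Tagln at -0.21, none past the threshold. The Tpm3 call was lost without any 1 array (-0.39 to -0.36), and that of Tpm4 without Vorinostat 1 (-0.51).

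**Figure D3:**
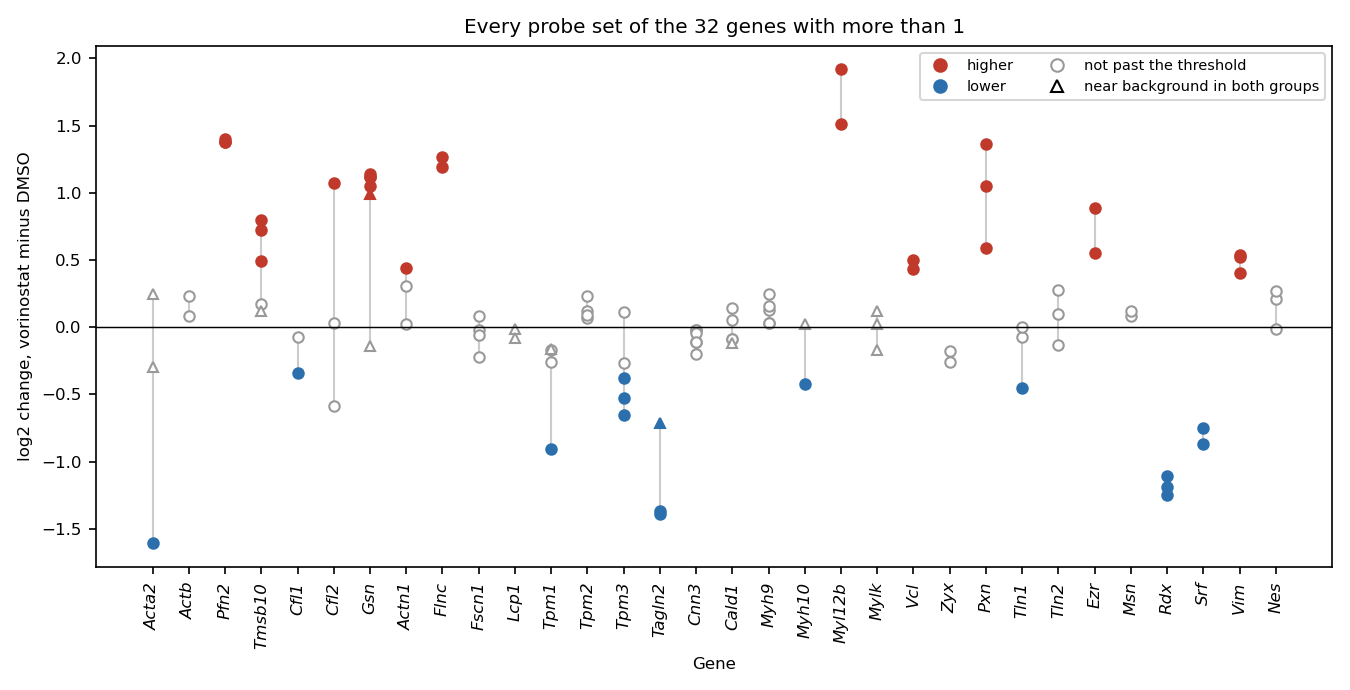
Log2 change (vorinostat minus DMSO, vertical axis) of every probe set of the 32 genes that have more than 1; red symbols rose, blue symbols fell, open symbols did not pass, and triangles mark probe sets near background in both groups. No gene holds both red and blue symbols, and the widest spreads are those of Acta2 (-1.61 to 0.25), Cfl2 (-0.59 to 1.07) and Gsn (-0.14 to 1.14).

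Of the 7 myosin II genes and their kinase, 2 rose, 2 fell and 3 did not pass. Among the regulatory light chains, whose phosphorylation switches on the motor, Myl12b and Myl9 moved apart. Myl12b read 12.15 and 12.13 with vorinostat and 10.59 and 10.67 with DMSO, 2.85-fold higher (1.51, SE 0.08, adjusted p = 0.000275), and its second probe set, near background with DMSO, also rose. Myl9 read 6.94 and 6.89 with vorinostat and 7.67 and 7.32 with DMSO (-0.58, SE 0.13, adjusted p = 0.0236). The essential light chain Myl6 rose by 0.56 (SE 0.14, adjusted p = 0.0312), at 7.36 and 7.68 with vorinostat against 7.05 and 6.86 with DMSO. That value rests on 1 probe set, and 2 others whose annotation joins Myl6 with further genes changed by 0.16 (adjusted p = 0.188) and 0.09 (adjusted p = 0.445) and did not pass. Of the heavy chains, Myh10 fell by 0.42 (SE 0.09, adjusted p = 0.0213), with 0.02 at a second probe set and no call for the mean of both (-0.20, adjusted p = 0.0932), while Myh9 (0.13, adjusted p = 0.422) and Myh14 (0.25, adjusted p = 0.0631) did not pass. Myosin light chain kinase, Mylk, was near background at all 3 of its probe sets.

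Most of the smaller myosin changes lost their calls on alternatives. The call of Myl6 (0.40 to 0.72) and that of Myh10 (-0.50 to -0.35) were lost without any 1 array, and that of Myl9 without Vorinostat 1 (-0.61), Vorinostat 2 (-0.55) or DMSO 1 (-0.41). Reference-gene scaling left Myh10 at -0.05 and Myl9 at -0.20, neither past the threshold, and Myl12b at 1.89.

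Of 6 focal adhesion genes, 2 rose, 2 fell and 2 did not pass. The scaffold paxillin, Pxn, read 11.04 and 10.94 with vorinostat and 9.60 and 9.65 with DMSO, 2.57-fold higher (1.36, SE 0.08, adjusted p = 0.000378), and its 3 probe sets all rose, by 0.59 to 1.36. Vinculin, Vcl, which links talin to actin, rose by 0.43 (SE 0.08, adjusted p = 0.0121), with 0.50 at its second probe set. Talin itself, the integrin activator, was lower for Tln1 at its brightest probe set (-0.45, SE 0.11, adjusted p = 0.027) and did not pass for Tln2 (0.10). The other 2 Tln1 probe sets, at -0.07 and 0.00, did not pass, nor did the mean of all 3 (-0.17, adjusted p = 0.208). Vasp, which speeds filament growth at adhesions, read 8.53 and 8.70 with vorinostat and 9.55 and 9.38 with DMSO, 1.80-fold lower (-0.85, SE 0.10, adjusted p = 0.00278). Its binding partner zyxin, Zyx, had -0.26 (adjusted p = 0.0712) and did not pass. The call of Vcl was lost without any 1 array (0.39 to 0.46), and that of Tln1 without Vorinostat 1 (-0.40), Vorinostat 2 (-0.49) or DMSO 1 (-0.34). Under reference-gene scaling Tln1 was at -0.07 and Zyx turned to 0.12.

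The 3 membrane linkers of the ERM family, which tie actin to the plasma membrane, split into all 3 outcomes. Ezrin, Ezr, the form typical of epithelia, read 9.79 and 9.75 with vorinostat and 8.92 and 8.85 with DMSO, 1.85-fold higher (0.89, SE 0.08, adjusted p = 0.00102). Radixin, Rdx, read 9.29 and 9.38 with vorinostat and 10.58 and 10.45 with DMSO, 2.27-fold lower (-1.19, SE 0.09, adjusted p = 0.000629). All 3 Rdx probe sets fell, between -1.25 and -1.11, and both Ezr probe sets rose, by 0.55 and 0.89. Moesin, Msn, changed by 0.08 (SE 0.08, adjusted p = 0.511) and did not pass.

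The transcription factor and its coactivator also moved in opposite directions. Srf read 7 and 7.07 with vorinostat and 7.94 and 7.88 with DMSO, 1.83-fold lower (-0.87, SE 0.08, adjusted p = 0.00112), and its second probe set fell by 0.75. Mrtfa read 7.76 and 7.73 with vorinostat and 6.83 and 6.65 with DMSO, 2.00-fold higher (1.00, SE 0.09, adjusted p = 0.00117). Neither pair of groups overlapped. Both calls held under each of the 13 alternatives run, with Srf at -0.50 and Mrtfa at 1.38 under reference-gene scaling.

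Of the intermediate filament genes, the mesenchymal Vim rose by 0.40 (SE 0.08, adjusted p = 0.0134), at 13.47 and 13.44 with vorinostat and 13.05 and 13.06 with DMSO, and its other 2 probe sets rose by 0.52 and 0.54. The progenitor gene Nes had 0.21 (adjusted p = 0.158) and did not pass. The Vim call was lost without any 1 array (0.38 to 0.41).

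Opposite moves within families were followed as log2 ratios of probe sets on the same array, for 6 pairs chosen after their values were seen and therefore given without a test. Such a ratio is free of a constant shift of an array, but not of normalization that depends on level, and shows unequal change. Its absolute height has no meaning because probe sets differ in brightness. Pfn2 over Pfn1 was -0.61 and -0.78 with vorinostat and -3.04 and -2.97 with DMSO. Ezr over Rdx was 0.50 and 0.38 with vorinostat and -1.66 and -1.61 with DMSO. The largest shift of the 6 pairs was that of Cnn1 over Acta2, at 3.90, and the shifts of the other 5 ran from 1.84 for Flnc over Flna to 2.31 for Pfn2 over Pfn1.

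**Figure D4:**
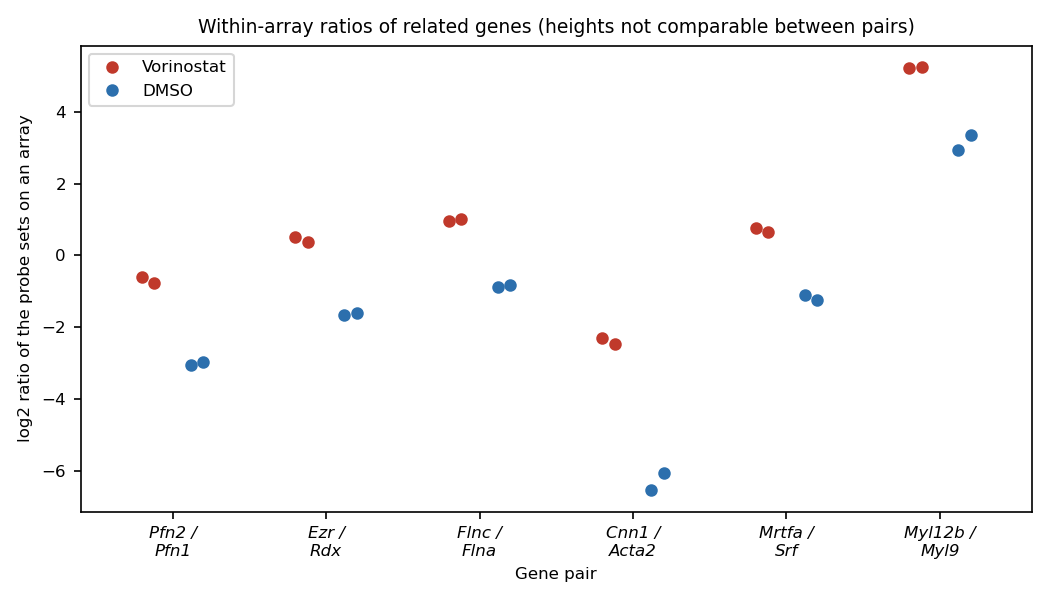
Log2 ratio of 2 probe sets on the same array (vertical axis) for 6 gene pairs, with Vorinostat arrays in red at the left and DMSO arrays in blue at the right of each pair. In each pair both Vorinostat points lie above both DMSO points, by 1.84 to 3.90 on average.

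Genes around the set were read from 6 lists that hold none of the 52. Each share called stands against 39.9% of all genes (20.9% higher and 18.9% lower) and is not matched for level. Whenever 1 array was left out, fewer probe sets passed over the whole array as well. Among 24 filament nucleators and their activators 6 rose and 4 fell (41.7% called, against 39.9% of all genes). The formin Diaph3 (-2.04, SE 0.09, adjusted p = 0.000225) and the WAVE complex subunit Nckap1 (-0.66, SE 0.08, adjusted p = 0.00235) fell, while Wasf1 (0.93, SE 0.09, adjusted p = 0.00125) and Spire1 (0.74, SE 0.10, adjusted p = 0.00403) rose. Other Spire1 probe sets lay between -0.12 and 0.52. Without DMSO 2, Spire1 did not pass and 3 genes of the list rose, against 4 without any other array, and 2 fell whichever array was left out.

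Capping, severing and monomer-binding genes outside the 52 had 11 of 21 higher and 4 lower (71.4% called, against 39.9% of all genes). Their median change was 0.43, against 0.03 over all genes. The monomer-binding Twf2 rose by 1.45 (SE 0.10, adjusted p = 0.000431) and Coro1a by at least 1.01 from near background (adjusted p = 0.000352), with other probe sets of Coro1a at -0.01 and 0.57. The capping proteins Eps8 (-1.09, SE 0.10, adjusted p = 0.00109) and Capg (-0.66, SE 0.09, adjusted p = 0.00411) fell. The call of Capg was lost without DMSO 1, and its second probe set was at -0.35. Without Vorinostat 1, Vorinostat 2, DMSO 1 and DMSO 2, 6, 8, 5 and 7 of these genes rose and 2, 2, 1 and 2 fell.

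Of 24 integrin and focal adhesion genes 9 rose and 4 fell (54.2% called, against 39.9% of all genes). The integrin chains Itgb5 (1.20, SE 0.09, adjusted p = 0.000561) and Itga1 (1.13, SE 0.11, adjusted p = 0.00126) showed the largest rises, with 0.32 at a second Itga1 probe set. The parvin Parva (-1.75, SE 0.09, adjusted p = 0.000268) and the tensin Tns3 (-0.79, SE 0.11, adjusted p = 0.00434) showed the largest falls. Tns3 did not pass without DMSO 1 or DMSO 2, and its second probe set was at 0.10. Without Vorinostat 1, Vorinostat 2, DMSO 1 and DMSO 2, 5, 6, 5 and 5 rose and 3, 3, 2 and 1 fell.

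SRF cofactors and textbook targets had 11 of 20 higher and 3 lower (70% called, against 39.9% of all genes). The immediate early gene Junb rose by 2.10 (SE 0.08, adjusted p = 0.000168) and the matricellular Ccn2 by 2.07 (SE 0.08, adjusted p = 0.00017), to 12.71 and 12.71 with vorinostat against 10.65 and 10.63 with DMSO. Fhl1 (-1.21, SE 0.09, adjusted p = 0.000564) and the SRF partner Elk4 (-1.16, SE 0.13, adjusted p = 0.00194) fell, with other probe sets at 0.10 for Fhl1 and 0.02 to 0.06 for Elk4. Srf itself was lower while 11 genes of this list, the cofactors Mrtfb and Elk1 among them, were higher. Leaving out any 1 array left 7 that rose. The list holds none of the 52 genes, many of which SRF also drives. Which of them SRF drives in these cells was not tested. Of all 52, 15 rose and 14 fell (55.8% called, against 39.9% of all genes). Acta2 and Tagln were among those that fell, and Cnn1 and Vcl among those that rose. Of 18 other myosins 2 rose and 2 fell (22.2% called, against 39.9% of all genes). Myo6 (1.54, SE 0.11) and Myo1d (1.46, SE 0.10) rose, and Myo5c (-1.38, SE 0.10) and Myo10 (-0.46, SE 0.11) fell. The call of Myo10 was lost without any 1 array. Other probe sets were at 0.69 to 1.07 for Myo6, 0.49 for Myo1d and -0.05 for Myo5c. Of 16 other intermediate filament genes and linkers 3 rose and 4 fell (43.8% called, against 39.9% of all genes). Krt19 (1.10, SE 0.10) and the desmosomal Dsp (0.92, SE 0.09) led the rises. The lamin Lmnb1 (-1.65, SE 0.08) and the keratin Krt8 (-1.05, SE 0.12) led the falls. Adjusted p by limma for the 8 genes named from these 2 lists lay between 0.000243 for Lmnb1 and 0.0302 for Myo10. Other Dsp probe sets were at 0.24 and 0.90. With reference-gene scaling the members higher became 19, 15, 16, 17, 14 and 11 in the order of the lists above, and those lower 2, 2, 3, 2, 1 and 2.

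**Figure D5:**
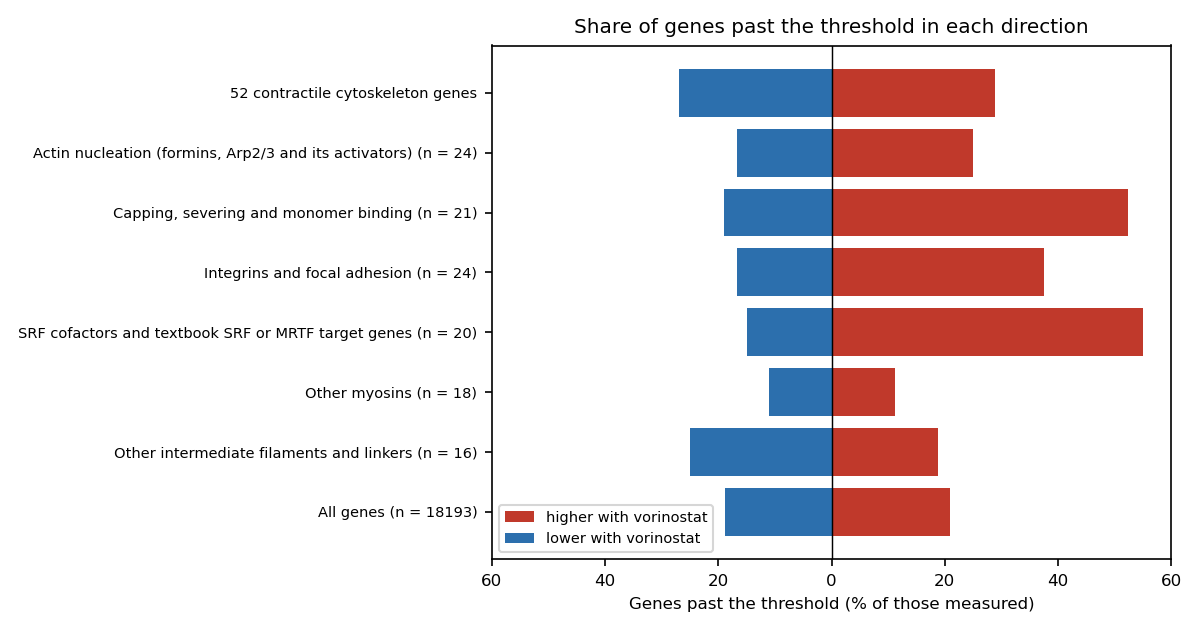
Genes past the threshold as a percentage of those measured (horizontal axis), higher to the right in red and lower to the left in blue, for the 52 genes, the 6 surrounding lists and all 18193 genes. The 52 genes have near-equal shares of 28.8% higher and 26.9% lower, against 20.9% and 18.9% of all genes.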

How the data were processed

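RNA from 4 samples of PPS-ICBR cells was measured on Affymetrix mouse arrays. The log2 values are those the authors deposited. RMA and the Transcriptome Analysis Console are named per the submitters' processing notes, with no version. RMA as defined subtracts background, equalises array distributions and summarises probe sets, which hides any shift common to every gene. As to the genome build, the sources used here do not give it.

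Of 45101 probe sets, 64 controls were left out, and 34945 of the other 45037 had 1 symbol, for 18193 genes (932 had several). Symbols come from the platform annotation, updated through gene identifiers to RefSeq names. Vorinostat and DMSO were compared with limma 3.58.1 in R 4.3.3 (lmFit, eBayes, 3.26 prior degrees of freedom, two-sided, Benjamini-Hochberg), with no filter. The script was tested on simulated data. The number of arrays limits precision.

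The 52 genes, the lists and the rules were chosen with earlier results of these data known. Every member was named, with full values for those past the threshold and changed at least 2-fold, and for Actb, Actg1, Acta2, Tagln, Vim, Srf, Mrtfa and Cfl1, and from each list the 2 largest rises and falls past the threshold. The 13 alternatives left out single arrays, blocked on replicate number, filtered dim probe sets, or changed the variance prior, scaling or probe set choice. Sequences were not used here. Results of 1 further list and of some marker genes are not reported here.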

Additional observations from a re-analysis of the deposited data

Results flagged for a closer look

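The 3 array controls for beta-actin, which the comparison did not use, lay higher on both Vorinostat arrays than on both DMSO arrays, by 0.08 at the 3' end, 0.10 at the 5' end and 0.11 in the middle. The 3' control, for example, read 13.62 and 13.62 with vorinostat and 13.51 and 13.56 with DMSO. In addition, 2 probe sets whose annotation joins Myl6 with other genes were fitted with all others but counted under no gene. They were higher on both Vorinostat arrays, by 0.16 (1424269_a_at, 12.55 and 12.58 with vorinostat, 12.42 and 12.39 with DMSO) and by 0.09 (1434396_a_at, 12.49 and 12.51 with vorinostat, 12.43 and 12.40 with DMSO). In limma's fit neither passed, with adjusted p of 0.188 and 0.445, and the differences of the controls were not tested.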

How the results depend on the processing

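Of the 29 changed genes, 14 passed in the same direction under each of the 13 alternatives that gave it a value (Pfn1, Pfn2, Tmsb4x, Gsn, Flnc, Tagln2, Cnn1, Myl12b, Pxn, Vasp, Ezr, Rdx, Srf and Mrtfa), and 3 changed sign in at least 1. Of the 23 that did not pass, 18 did so with their sign unchanged in at least 1. Among these 18, Actb, Actc1, Cfl2, Vil1, Fscn1, Cald1, Myh9, Tln2, Msn and Nes passed under reference-gene scaling alone. Actg2 and Cnn3 also passed under that scaling, with their sign turned. Omitting single arrays leaves fewer samples to fit: 9 to 10 of the 52 genes rose and 7 to 11 fell, 21 to 26 of their probe sets rose and 14 to 17 fell against 32 and 23 with all arrays, and 3778 to 4284 of all probe sets rose and 3900 to 4575 fell, against 7440 and 7051. The median of the 52 genes then lay between 0.06 and 0.12. Scaling on reference genes moved the median from 0.09 to 0.47, gave 33 genes higher and 7 lower, 82 and 14 of their probe sets, and 27911 and 3868 of all probe sets. Equalising array medians gave a median of 0.03. Because that scaling adds a constant, Acta1 (0.10), Actg2 (0.37), Cfl1 (0.31), Cnn3 (0.36), Lcp1 (0.37), Mylk (0.20), Pls3 (0.03), Tpm1 (0.21), Tpm3 (0.00) and Zyx (0.12) turned to 0 or higher under it.

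Further reversals were Actb (-0.02) and Cfl1 (0.02) with quantile normalization once more, Cfl2 (-0.03) with equal medians, Cald1 (-0.02) and Fscn1 (-0.06) as means of all probe sets, and Acta2 (0.25), Cald1 (-0.09), Fscn1 (-0.02) and Tpm3 (0.11) at the brightest probe set without a suffix, which for Acta2 is near background. Without 1 array, Actg2 (-0.07 to 0.06), Cfl2 (-0.01 to 0.07), Cnn3 (-0.06 to 0.02), Lcp1 (-0.15 to 0.13) and Vil1 (-0.07 to 0.29) changed sign. The dim filter left no value for Actg2, Lcp1, Mylk and Vil1. The replicate block, which rests on shared numbers alone, removed 4 calls (Pls3, Myh10, Myl6 and Tln1), leaving 14 genes higher and 11 lower, 31 and 18 of their probe sets, and 5856 and 5704 of all probe sets. It left 1 of the other myosins lower, against 2. The difference between replicates 1 and 2 correlated at -0.06 between the groups. Of the other myosins, 5 rose with the dim filter or an intensity trend and 4 with quantile normalization once more, against 2. The cause of these moves was not tested. Background correction could not be varied from deposited values.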
